A study of Homo sapiens with 4 samples.

Results

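The PI3K-AKT-mTOR pathway carries growth factor and insulin signals to protein synthesis and growth, and 34 of its components were followed in SJSA-1 cells with ZNF217 knocked down. SJSA-1 is an established human osteosarcoma cell line, and ZNF217 is a zinc finger transcription factor. The components were a fixed list of gene names: catalytic and regulatory subunits of PI3K, the kinases PDPK1, AKT and SGK1, lipid and protein phosphatases, the mTOR complexes with their TSC and RHEB switch, and the outputs of the pathway. All 34 were found among the 20024 genes of the count table. Messenger RNA was measured by RNA sequencing in 2 libraries of SJSA-1 cells labelled ZNF217 knockdown and 2 labelled control, with no other treatment in the labels. The labels name no knockdown reagent and no time after knockdown. They also do not say whether replicates were separate cultures; a p-value here then reflects the spread between libraries, which could be technical.

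In this pathway, class I PI3K enzymes, each a catalytic subunit held by a regulatory subunit, make the membrane lipid PIP3. PIP3 recruits AKT, which PDPK1 and the mTORC2 complex phosphorylate, and lipid phosphatases such as INPPL1 and INPP4B convert PIP3 and its products. AKT releases the GTPase RHEB from the TSC complex, RHEB activates mTORC1, and mTORC1 acts on protein synthesis through the S6 kinases and the translation repressors encoded by EIF4EBP1 and EIF4EBP2. Much of this control is by phosphorylation and location, which messenger RNA levels do not show. In osteosarcoma the pathway is known for driving growth and survival.

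The libraries held 24428774 and 23217521 counts in knockdown cells, against 21466327 and 24487126 counts in control cells. ZNF217 had 37.6 and 31.9 CPM (a count scaled to the library total, with a correction for composition) in knockdown cells, against 66.2 and 73.4 CPM in control cells. Knockdown cells thus kept 49.7% of the control level, with a log2 fold change of -1.01 ± 0.20 (SE) and an adjusted p of 0.207 in the edgeR quasi-likelihood test. The control libraries differed far more from each other than the knockdown libraries did: the biological coefficient of variation was 0.0776 between knockdown libraries and 0.393 between control libraries. Each result below is therefore also given against each control library alone where that matters. Of 9 osteosarcoma or osteoblast markers, 4 passed the low-count filter and 2 had under 3 counts in every library; their summed level was 914 and 900 TPM (a level per length) in knockdown cells, against 755 and 707 TPM in control cells, nearly all of it SPARC. MDM2 and CDK4, genes amplified in SJSA-1, summed to 366 and 386 TPM in knockdown cells, against 391 and 172 TPM in control cells. Nearly all of this was CDK4. MDM2 had 11.6 and 9.31 TPM in knockdown cells, against 10.4 and 6.37 TPM in control cells. Control replicate 2 was thus the low library for each gene. Markers of blood, epithelial and endothelial cells summed to at most 1.65 TPM in any library. In bulk RNA, fewer cells of a type and less RNA per cell cannot be told apart.

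The promoters of 4 members are shown first, because they belong to the related pairs whose balance differed most between the groups: PIK3R3 with PIK3R1, and PHLPP2 with PHLPP1. Each line gives the 250 bases before an annotated start, 5′ to 3′ along the gene's strand, from RefSeq on GRCh38.p14. Capitals mark a match to CAGAAC or CAGAAT, a core sequence known from studies of ZNF217 binding, searched on both strands. PIK3R3 is shown at the gene's outermost start (chr1:46133037-46133286, minus strand) and at a start further inside it (chr1:46132630-46132879, minus strand). The inner start was picked because its window holds a match, and no window of another gene was picked that way. The others are PIK3R1 (chr5:68215506-68215755, plus strand), PHLPP2 (chr16:71724702-71724951, minus strand) and PHLPP1 (chr18:62715291-62715540, plus strand).
PIK3R3, outermost start: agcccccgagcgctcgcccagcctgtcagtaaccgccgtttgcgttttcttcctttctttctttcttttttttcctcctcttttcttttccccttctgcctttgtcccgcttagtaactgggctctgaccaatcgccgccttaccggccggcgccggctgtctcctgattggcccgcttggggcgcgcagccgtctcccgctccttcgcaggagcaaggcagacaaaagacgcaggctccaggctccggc
PIK3R3, inner start: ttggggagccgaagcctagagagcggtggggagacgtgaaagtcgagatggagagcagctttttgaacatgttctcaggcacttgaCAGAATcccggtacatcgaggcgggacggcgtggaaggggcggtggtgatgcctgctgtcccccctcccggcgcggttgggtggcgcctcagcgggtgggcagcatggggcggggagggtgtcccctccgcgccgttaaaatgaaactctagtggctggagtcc
PIK3R1: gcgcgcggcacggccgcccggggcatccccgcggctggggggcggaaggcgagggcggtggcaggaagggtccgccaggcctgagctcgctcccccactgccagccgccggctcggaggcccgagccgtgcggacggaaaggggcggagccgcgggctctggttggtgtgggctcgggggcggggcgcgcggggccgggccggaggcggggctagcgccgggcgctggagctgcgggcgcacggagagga
PHLPP2: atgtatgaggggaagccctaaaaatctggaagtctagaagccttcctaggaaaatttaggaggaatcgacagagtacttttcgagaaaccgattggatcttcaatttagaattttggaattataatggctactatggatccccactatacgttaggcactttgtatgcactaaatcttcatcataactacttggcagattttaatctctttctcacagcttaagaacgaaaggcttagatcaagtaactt
PHLPP1: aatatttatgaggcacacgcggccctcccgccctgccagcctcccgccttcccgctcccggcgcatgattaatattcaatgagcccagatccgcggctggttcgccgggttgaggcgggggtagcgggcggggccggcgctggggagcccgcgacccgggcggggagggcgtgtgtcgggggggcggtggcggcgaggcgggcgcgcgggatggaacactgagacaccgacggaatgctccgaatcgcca
The core was in 4 of the 6 PIK3R3 windows in the table and in 0 of the 4 PIK3R1 windows, and in neither PHLPP window. Some matching PIK3R3 windows lie at starts whose following bases were not found in a GENCODE transcript of the gene. Over all 30 members with a window it was in 14 of 54 windows (25.9%), against 22.3% of all 35116 windows of this length, so the share among members was near the background. The windows differ in composition: PHLPP2 had 37.2% G and C, PHLPP1 had 71.2%, and PIK3R1 had 81.6%. A match describes letters only and is not a binding site.

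The largest fitted difference of a member was in PIK3R3, a class I regulatory subunit of PI3K, which was higher in knockdown cells. Of the 34 members, 32 passed the low-count filter; PIK3R2, a class I regulatory subunit, and INPP5D, a lipid phosphatase of blood cells, did not. No member had an adjusted p under 0.05 in edgeR, and neither did any other gene (0% of 12965 genes); the lowest adjusted p of a member was 0.237 and the lowest of all genes 0.11. At an unadjusted p under 0.05, edgeR had 3 members higher (PIK3R3, PHLPP2 and INPP4B) and 2 lower (SGK1 and EIF4EBP1), where 13.0% of all genes tested had such a p (6.61% higher and 6.42% lower). DESeq2 called 1 member, PIK3R3, higher and 0 lower at an adjusted p under 0.05, with 3.8% of all genes called; at an unadjusted p under 0.05 it had 3 members higher and 4 lower, which is 21.9% of the tested members beside 13.4% of all genes. The median log2 fold change of the 32 members was -0.15, beside -0.006 over all genes tested; it was -0.08 against control replicate 1 alone and -0.12 against control replicate 2 alone. The groups did not overlap for 5 members that were higher and 10 that were lower in knockdown cells, beside 48.3% of all genes tested (25.4% higher and 22.9% lower). That is 46.9% of the tested members, close to the background. With libraries scaled by total counts alone, which moves the median of all genes by 0.11 on the log2 scale, 8 members were higher and 7 lower without overlap.

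**Figure D1:**
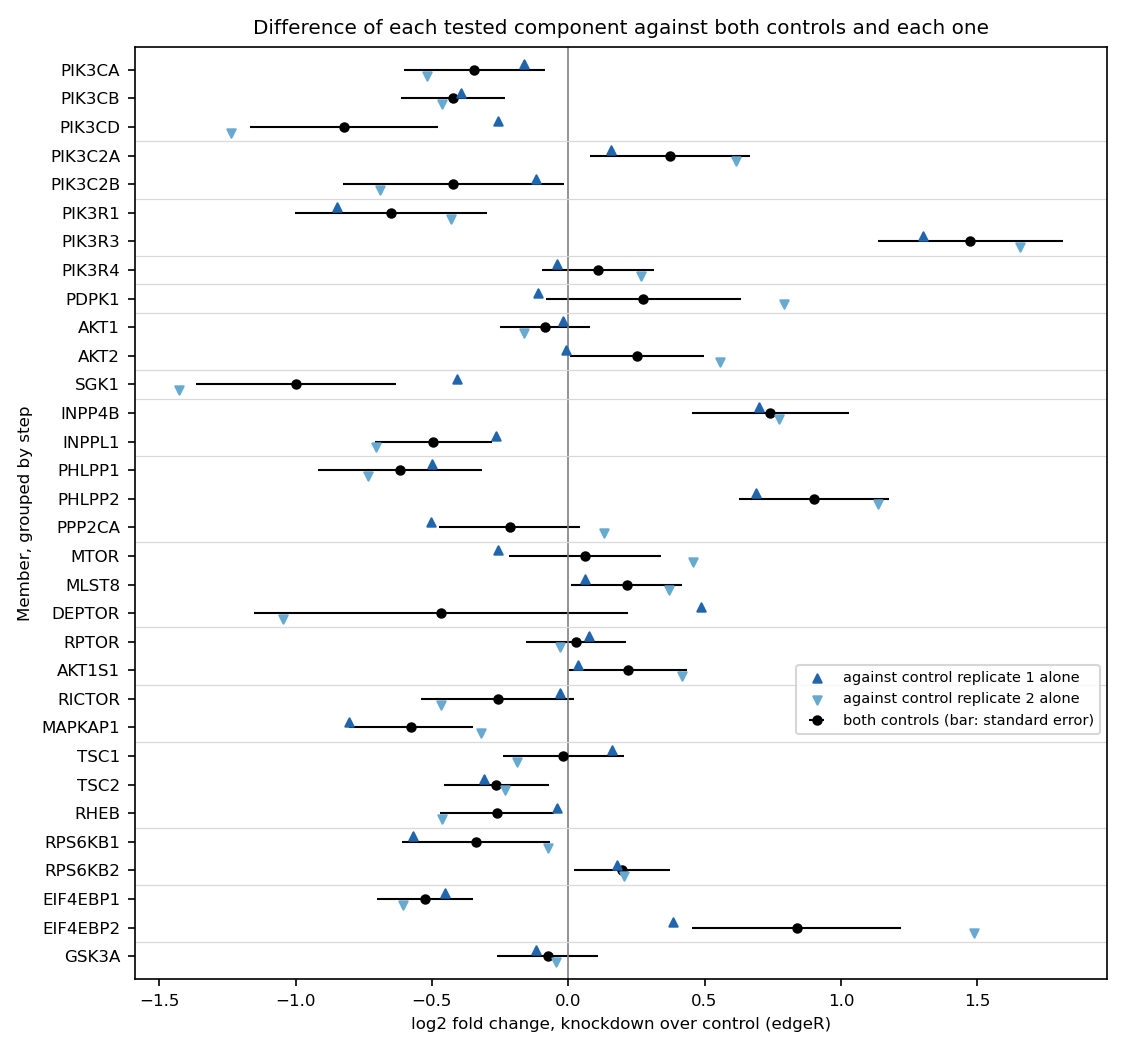
Log2 fold change of each of the 32 tested members, knockdown over control (horizontal axis, edgeR), by step of the pathway (rows). Black points use both controls and bars are standard errors; triangles use control replicate 1 or control replicate 2 alone. PIK3R3, PHLPP2, INPP4B and EIF4EBP2 lie to the right of 0 against each control, while 8 members change side between the controls.

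With a single control library, the spread comes from the knockdown libraries alone, and the lone control is assumed to vary as they do. Under that assumption edgeR called 4 members higher and 8 lower against control replicate 1, where 34.6% of all genes were called (18.0% higher and 16.6% lower), and 10 higher and 11 lower against control replicate 2, where 55.9% of all genes were called (27.9% higher and 28.0% lower). Against each control alone, 9 members were called in the same direction (16.3% of all genes were, 8.74% higher and 7.6% lower). PIK3R3, INPP4B, PHLPP2 and EIF4EBP2 were the 4 higher ones, and PIK3CB, SGK1, PHLPP1, MAPKAP1 and EIF4EBP1 the 5 lower ones. None was called in opposite directions, although the fitted difference of 8 members had opposite signs against the 2 controls: PIK3R4, PDPK1, AKT2, PPP2CA, MTOR, DEPTOR, RPTOR and TSC1.

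Among the catalytic subunits of class I PI3K, CPM in knockdown cells lay below CPM in control cells for PIK3CB and PIK3CD. PIK3CB, the ubiquitous beta isoform, had 25.7 and 25.3 CPM in knockdown cells, against 33.5 and 34.9 CPM in control cells (log2 fold change -0.42 ± 0.19 SE, edgeR adjusted p = 0.436). PIK3CD, the delta isoform best known from leukocytes, had 60.6 and 59.7 CPM in knockdown cells, against 71.9 and 141 CPM in control cells (log2 fold change -0.82 ± 0.35 SE, edgeR adjusted p = 0.408). The PIK3CD difference was mostly that of control replicate 2: it was -0.26 on the log2 scale against control replicate 1 alone and -1.24 against control replicate 2 alone. PIK3CA, the alpha isoform that is often mutated in cancer, had 20.2 and 15.9 CPM in knockdown cells, against 20.2 and 25.7 CPM in control cells. Its groups overlapped in CPM by a small margin. They did not overlap in TPM (6.94 and 5.22 TPM in knockdown cells, against 7.05 and 7.39 TPM in control cells). Per length, PIK3CD was the most abundant class I catalytic transcript in every library, with 31.7 and 29.9 TPM in knockdown cells, against 38.2 and 61.8 TPM in control cells. PIK3CB followed with 10.9 and 10.2 TPM in knockdown cells, against 14.4 and 12.4 TPM in control cells, and PIK3CA was lowest, at 5.22 to 7.39 TPM over all libraries. Of the exonic bases of PIK3CA, 35.8% lie under exons of KCNMB3 on the opposite strand, so its counts are uncertain with the strand setting unknown. PIK3CD has 1 pseudogene by name, so shared reads are possible. The class II kinases, which make a PIP3-related lipid on endosomes, overlapped between the groups. PIK3C2A had 23.1 and 17.1 CPM in knockdown cells, against 18.0 and 13.0 CPM in control cells, and PIK3C2B had 3.79 and 5.88 CPM in knockdown cells, against 5.23 and 7.72 CPM in control cells.

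The order of PIK3R3 and PIK3R1, class I regulatory subunits, differed between the groups. PIK3R3 (chromosome 1, 46040140 to 46133036, minus strand) had 8.35 and 10.4 CPM in knockdown cells, against 3.79 and 2.95 CPM in control cells. The groups were far apart: the fold was 2.78 in CPM fitted by edgeR (log2 fold change 1.47 ± 0.34 SE, adjusted p = 0.237). In DESeq2 the log2 fold change was 1.46 ± 0.44 (SE) with an adjusted p of 0.0323, so PIK3R3 rose by that test alone. The DESeq2 adjusted p was 1 without knockdown replicate 1 or 2, 0.000276 without control replicate 1 and 0.00745 without control replicate 2. PIK3R1 (chromosome 5, 68215720 to 68301821, plus strand), the subunit that stabilizes and restrains the class I catalytic subunits, had 8.31 and 5.55 CPM in knockdown cells, against 12.5 and 9.28 CPM in control cells. Its groups did not overlap in CPM, but did in TPM (2.57 and 1.64 TPM in knockdown cells, against 3.92 and 2.41 TPM in control cells), and its difference did not pass the test (log2 fold change -0.65 ± 0.35 SE, edgeR adjusted p = 0.493). Its log2 difference was -0.85 against control replicate 1 alone and -0.43 against control replicate 2 alone. PIK3R2 had 2 and 2 counts in knockdown cells, against 5 and 3 counts in control cells. Its level cannot be read: 87.2% of its exonic bases lie under exons of AC007192.1 on the same strand, a gene with 0 counts in every library, and how shared reads were counted is not given in the sources used here. Shares per length were taken of the summed level of PIK3R1, PIK3R2 and PIK3R3 as counted. Because the level of PIK3R2 cannot be read, they are not shares of all class I regulatory transcripts. PIK3R3 made up 58.8% and 72.4% of that sum in knockdown cells, against 29.7% and 30.8% in control cells. The share of PIK3R1 was 40.3% and 26.7% in knockdown cells, against 67.3% and 66.9% in control cells. PIK3R3 was thus the leading regulatory transcript in each knockdown library and PIK3R1 in each control library, among those whose level can be read. The exact permutation test gave p = 0.333 for these shares, the smallest p that 2 libraries against 2 allow. For PIK3R3, 17.4% of exonic bases lie under AL358075.4 on the same strand, which had 0 counts in every library. PIK3R4, the regulatory subunit of the class III kinase used in autophagy and endosome traffic, overlapped, with 47.1 and 45.5 CPM in knockdown cells, against 47.6 and 38.2 CPM in control cells.

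**Figure D2:**
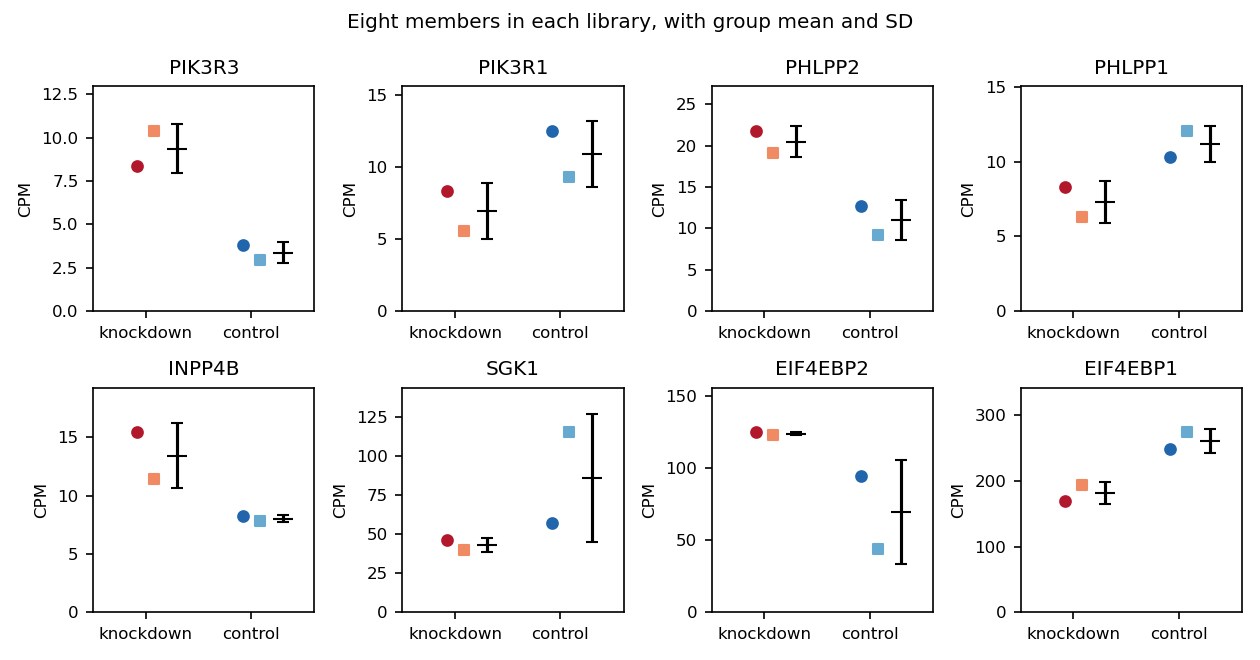
CPM of 8 members (vertical axes from 0) in each knockdown library and each control library, replicate 1 as circles and replicate 2 as squares; black marks are group means with SD (n = 2 each). PIK3R3, PHLPP2, INPP4B and EIF4EBP2 lie higher in knockdown cells, and PIK3R1, PHLPP1, SGK1 and EIF4EBP1 lie lower, with no overlap between groups.

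Of the kinases that receive the lipid signal, AKT1, AKT2 and PDPK1 overlapped between the groups and SGK1 did not. AKT1, the more abundant of AKT1 and AKT2 per length, had 235 and 252 CPM in knockdown cells, against 246 and 270 CPM in control cells (log2 fold change -0.09 ± 0.17 SE, and 0.0320 with total counts). AKT2, the isoform best known for insulin-driven glucose uptake, had 84.4 and 85.8 CPM in knockdown cells, against 85.4 and 57.4 CPM in control cells. The knockdown values of AKT2 lay near control replicate 1 and above control replicate 2. PDPK1, the kinase that activates AKT, followed the same order with 19.9 and 18.1 CPM in knockdown cells, against 20.5 and 10.9 CPM in control cells. PDPK1 has a near-identical copy in the genome, so its counts are uncertain. SGK1, a kinase related to AKT that mTORC2 and PDPK1 activate, had 46.4 and 39.7 CPM in knockdown cells, against 57.1 and 115 CPM in control cells. Its log2 fold change of -0.999 ± 0.37 (SE; edgeR adjusted p = 0.364) was -0.41 against control replicate 1 alone and -1.43 against control replicate 2 alone. Per length, AKT1 made up 78.9% and 79.8% of AKT1 and AKT2 together in knockdown cells, against 79.5% and 86.4% in control cells.

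The phosphatases split by gene. INPP4B, a lipid phosphatase that acts on a product of PIP3 and is a tumour suppressor in some cancers, had 15.4 and 11.5 CPM in knockdown cells, against 8.28 and 7.81 CPM in control cells (log2 fold change 0.74 ± 0.29 SE, edgeR adjusted p = 0.382). INPPL1, a phosphatase of PIP3 also called SHIP2, had 77.8 and 80.3 CPM in knockdown cells, against 94.8 and 128 CPM in control cells (log2 fold change -0.49 ± 0.21 SE, edgeR adjusted p = 0.418). The INPPL1 log2 difference was -0.26 against control replicate 1 alone (edgeR adjusted p = 0.0807) and -0.70 against control replicate 2 alone. The groups of each gene did not overlap, and the directions were opposite. Per length, INPPL1 was more abundant by far, at 39.2 and 38.8 TPM in knockdown cells, against 48.6 and 54.1 TPM in control cells, while INPP4B had 3.61 and 2.57 TPM in knockdown cells, against 1.97 and 1.54 TPM in control cells. INPP5D was listed at 0 TPM in 1 library of each group and at 0.153 TPM at most.

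PHLPP1 and PHLPP2 remove an activating phosphate from AKT, and they too lay on opposite sides. PHLPP2 (chromosome 16, 71637835 to 71724701, minus strand) had 21.8 and 19.1 CPM in knockdown cells, against 12.7 and 9.24 CPM in control cells (log2 fold change 0.90 ± 0.27 SE, edgeR adjusted p = 0.304). PHLPP1 (chromosome 18, 62715450 to 62980433, plus strand) had 8.28 and 6.30 CPM in knockdown cells, against 10.3 and 12.0 CPM in control cells (log2 fold change -0.62 ± 0.30 SE, edgeR adjusted p = 0.462). For neither gene did the groups overlap. Per length, PHLPP2 was 1.91 and 2.20 times PHLPP1 in knockdown cells, against 0.890 and 0.555 times in control cells, so PHLPP2 led in knockdown cells and PHLPP1 in control cells. PPP2CA, a catalytic subunit of protein phosphatase 2A, had 191 and 180 CPM in knockdown cells, against 263 and 168 CPM in control cells, and overlapped.

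**Figure D3:**
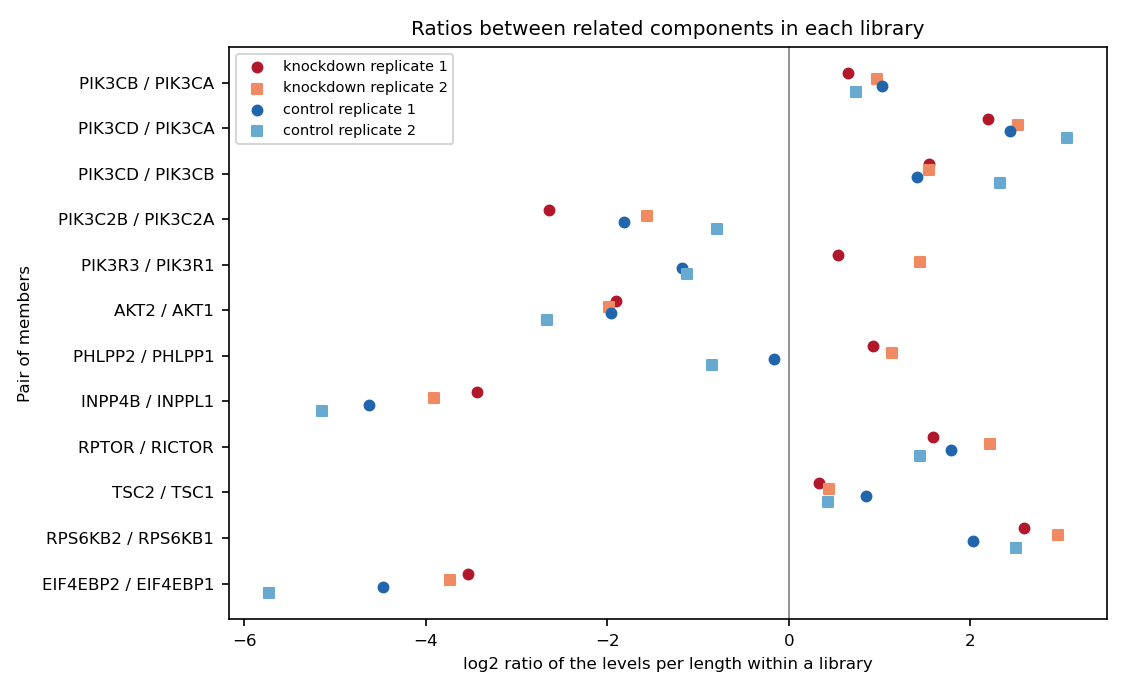
Log2 ratio of the levels per length of 12 pairs of related members within each library (horizontal axis), knockdown libraries in red and orange and control libraries in blue. In 5 pairs the knockdown libraries lie wholly to the right of the control libraries; the other 7 pairs overlap.

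Ratios within a library do not depend on how libraries are scaled, so 12 pairs of related members were set side by side; the pairs were chosen after values had been seen. The groups did not overlap in 5 of the 12 pairs. Of all genes tested singly, 48.3% did not overlap, and no such share was computed over gene pairs. The PIK3R3 to PIK3R1 ratio of levels per length was 1.46 and 2.72 in knockdown cells, against 0.441 and 0.460 in control cells, a mean log2 difference of 2.14. The mean log2 difference was 1.54 for PHLPP2 over PHLPP1, 1.47 for EIF4EBP2 over EIF4EBP1, 1.20 for INPP4B over INPPL1 and 0.51 for RPS6KB2 over RPS6KB1. Each of these 5 had an exact permutation p of 0.333, the smallest this design allows, which is 0.8 after adjustment over the 12 pairs. The ratios of the class I catalytic subunits to each other, of PIK3C2B to PIK3C2A, of AKT2 to AKT1, of RPTOR to RICTOR and of TSC2 to TSC1 overlapped between the groups. A ratio shows that the 2 genes differed unequally, not which of them did.

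All tested subunits of the mTOR complexes but MAPKAP1 overlapped between the groups. MTOR, the kinase of each complex, had 86.3 and 86.6 CPM in knockdown cells, against 103 and 62.5 CPM in control cells (log2 fold change 0.06 ± 0.28 SE). MLST8, a subunit that stabilizes the kinase, had 78.6 and 90.0 CPM in knockdown cells, against 80.7 and 64.7 CPM in control cells. The knockdown values of MTOR lay between the 2 controls, and those of MLST8 overlapped them. DEPTOR, an inhibitor of mTOR, was low, at 0.51 and 0.67 CPM in knockdown cells, against 0.42 and 1.21 CPM in control cells. RPTOR, the scaffold of mTORC1 that binds its substrates, had 54.9 and 61.7 CPM in knockdown cells, against 55.3 and 59.1 CPM in control cells (log2 fold change 0.03 ± 0.18 SE). AKT1S1, an mTORC1 inhibitor that AKT phosphorylates, had 87.0 and 99.5 CPM in knockdown cells, against 91.0 and 69.3 CPM in control cells, and overlapped. RICTOR, the scaffold of mTORC2, also overlapped, with 24.0 and 17.4 CPM in knockdown cells, against 21.1 and 28.5 CPM in control cells. MAPKAP1, the mTORC2 subunit also called SIN1, was a subunit whose groups stood apart. It had 92.0 and 88.4 CPM in knockdown cells, against 157 and 112 CPM in control cells, with a log2 fold change of -0.58 ± 0.23 (SE; edgeR adjusted p = 0.383). Here the high library was control replicate 1: the log2 difference was -0.80 against it alone and -0.32 against control replicate 2 alone. Per length, the 2 subunits particular to mTORC2 summed to 51.1 and 45.7 TPM in knockdown cells, against 83.9 and 52.0 TPM in control cells.

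TSC1, TSC2 and RHEB form the switch between AKT and mTORC1. TSC1, which stabilizes TSC2, had 26.6 and 28.4 CPM in knockdown cells, against 24.6 and 31.1 CPM in control cells (log2 fold change -0.02 ± 0.22 SE, and 0.104 with total counts). TSC2, the subunit that turns RHEB off, had 36.4 and 41.8 CPM in knockdown cells, against 48.3 and 45.6 CPM in control cells (log2 fold change -0.26 ± 0.19 SE, edgeR adjusted p = 0.596). RHEB, the GTPase that activates mTORC1, had 84.0 and 83.5 CPM in knockdown cells, against 86.1 and 115 CPM in control cells (log2 fold change -0.26 ± 0.21 SE, edgeR adjusted p = 0.629). TSC2 and RHEB did not overlap between groups in CPM, by a small margin in RHEB against control replicate 1, where its log2 difference was -0.04, beside -0.46 against control replicate 2 alone. In TPM, TSC2 did overlap, with 6.30 and 6.94 TPM in knockdown cells, against 8.51 and 6.63 TPM in control cells. RHEB has 3 pseudogenes by name, so its counts are uncertain.

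Among the outputs, the translation repressors EIF4EBP1 and EIF4EBP2, which hold back the cap-binding factor EIF4E until mTORC1 phosphorylates them, lay on opposite sides. EIF4EBP1 had 169 and 193 CPM in knockdown cells, against 248 and 274 CPM in control cells (log2 fold change -0.52 ± 0.18 SE, edgeR adjusted p = 0.334). EIF4EBP2 had 125 and 123 CPM in knockdown cells, against 94.8 and 43.8 CPM in control cells (log2 fold change 0.84 ± 0.38 SE, edgeR adjusted p = 0.436). EIF4EBP2 depended on the control: its log2 difference was 0.38 against control replicate 1 alone and 1.49 against control replicate 2 alone. EIF4EBP1 differed by -0.45 and -0.60 in the same order. Per length, EIF4EBP1 was the most abundant of all members, at 638 and 697 TPM in knockdown cells, against 949 and 865 TPM in control cells, and the sum of both repressors was 693 and 749 TPM in knockdown cells, against 992 and 881 TPM in control cells. Pseudogenes by name number 1 for EIF4EBP1 and 3 for EIF4EBP2, so shared reads are possible.

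The S6 kinases phosphorylate ribosomal protein S6 and translation factors. RPS6KB1, the better studied of the pair, overlapped, with 17.9 and 15.7 CPM in knockdown cells, against 24.9 and 17.5 CPM in control cells. RPS6KB2 did not, with 81.5 and 92.5 CPM in knockdown cells, against 76.8 and 75.0 CPM in control cells (log2 fold change 0.20 ± 0.18 SE, edgeR adjusted p = 0.668). Per length, RPS6KB2 exceeded RPS6KB1 6.03-fold and 7.81-fold in knockdown cells, against 4.09-fold and 5.66-fold in control cells. GSK3A, a glycogen synthase kinase that AKT inhibits, overlapped, with 39.5 and 43.2 CPM in knockdown cells, against 44.8 and 42.4 CPM in control cells. Of its exonic bases, 11.6% lie under AC006486.1 on the same strand, which had 0 counts in every library.

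**Figure D4:**
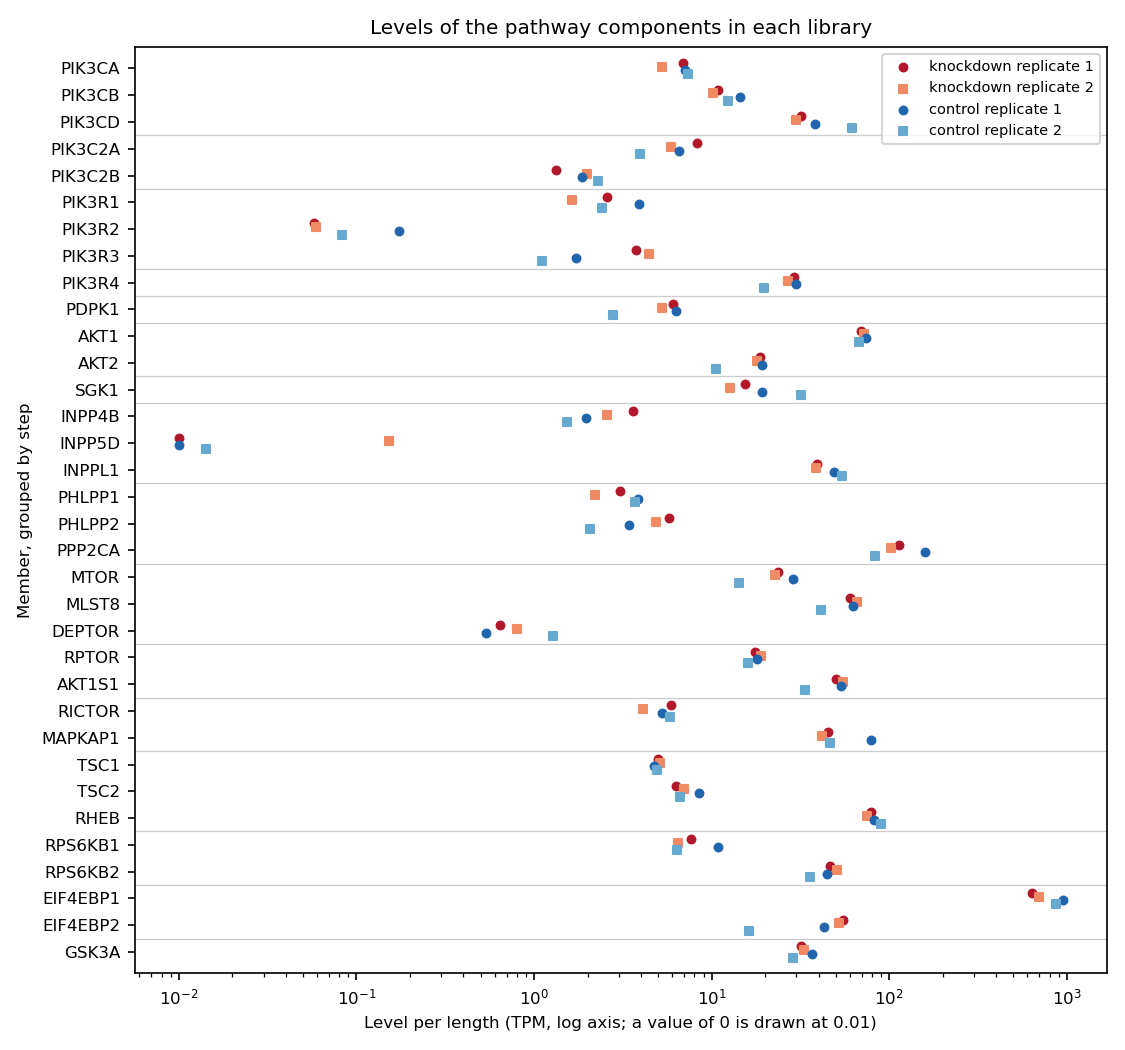
Level per length (TPM, log axis) of all 34 members in each knockdown library and each control library, by step of the pathway; a value of 0 is drawn at 0.01. EIF4EBP1 is the most abundant member and INPP5D has the lowest mean level. PIK3R2 is also drawn low, but its level cannot be read. The 2 control libraries lie apart for many members, such as MTOR and EIF4EBP2.

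Per length, the members spanned a wide range. After EIF4EBP1 came PPP2CA at 108 ± 8.12 TPM in knockdown cells and 121 ± 52.9 TPM in control cells (SD, n = 2 each), then RHEB at 76.9 ± 2.69 TPM in knockdown cells and 86.3 ± 5.76 TPM in control cells. AKT1 followed at 70.7 ± 1.33 TPM in knockdown cells and 70.9 ± 4.96 TPM in control cells. The order of PPP2CA, RHEB and AKT1 was not beyond the spread of PPP2CA between the control libraries.

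The 86 other pathway genes, grouped in 12 lists by role, were described the same way. Of these, 80 were tested, with a median log2 fold change of -0.09, which was 0.01 against control replicate 1 alone and -0.11 against control replicate 2 alone. With no overlap between groups, 18 were higher and 23 lower, 51.2% of those tested and close to the 48.3% of all genes. No gene had an adjusted p under 0.05 in edgeR, and 4 were higher and 5 lower at an unadjusted p under 0.05, 11.2% beside 13.0% of all genes. DESeq2 called 1 higher, SGK3, and 1 lower, PDCD4, where it called 3.8% of all genes. SGK3, an endosomal kinase of the SGK family that a class III PI3K lipid recruits, had 15.6 and 14.3 CPM in knockdown cells, against 5.09 and 1.78 CPM in control cells (DESeq2 log2 fold change 2.10, adjusted p = 0.0059; edgeR adjusted p = 0.265). PDCD4, a translation inhibitor that S6 kinase marks for degradation, had 28.8 and 22.8 CPM in knockdown cells, against 42.9 and 87.1 CPM in control cells (DESeq2 log2 fold change -1.36, adjusted p = 0.0287; edgeR adjusted p = 0.288). Neither gene was called by DESeq2 without knockdown replicate 1 or without knockdown replicate 2. With a control left out, the spread comes from the knockdown libraries alone, so a call there does not show stability. The DESeq2 log2 fold change of SGK3 was 1.55 against control replicate 1 alone and 3.04 against control replicate 2 alone. Against control replicate 1 alone, the DESeq2 log2 fold change of PDCD4 was -0.74, and against control replicate 2 alone it was -1.78. The SGK family thus held the SGK1 and SGK3 differences in opposite directions, with SGK1 not past either adjusted test.

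PIK3CG, the gamma catalytic isoform, had 6.60 and 6.46 CPM in knockdown cells, against 2.87 and 2.41 CPM in control cells (log2 fold change 1.31 ± 0.34 SE, edgeR adjusted p = 0.27). Its groups did not overlap, and neither did those of the adaptor PIK3AP1, with 5.58 and 3.79 CPM in knockdown cells, against 2.59 and 1.29 CPM in control cells. SESN1, a stress-induced inhibitor of mTORC1, had 14.2 and 11.4 CPM in knockdown cells, against 6.70 and 5.80 CPM in control cells (log2 fold change 1.03 ± 0.29 SE, edgeR adjusted p = 0.286). RRAGC, a GTPase that brings mTORC1 to the lysosome, had 46.0 and 42.4 CPM in knockdown cells, against 29.4 and 33.1 CPM in control cells. The remaining named genes lay lower in knockdown cells. ULK1, the autophagy kinase that mTORC1 inhibits, had 15.9 and 17.4 CPM in knockdown cells, against 22.2 and 82.8 CPM in control cells, and its log2 difference was -0.42 against control replicate 1 alone and -2.32 against control replicate 2 alone. UVRAG, an autophagy partner of the class III kinase, had 14.8 and 14.1 CPM in knockdown cells, against 21.8 and 25.8 CPM in control cells. EIF4B, a translation factor that S6 kinase phosphorylates, had 416 and 398 CPM in knockdown cells, against 539 and 620 CPM in control cells.

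By role, the 9 subunits of protein phosphatase 2A beside PPP2CA all had a negative log2 fold change (median -0.26), 6 of them with no overlap between groups (66.7%, beside 48.3% of all genes in either direction and 22.9% lower), and 0 had an unadjusted p under 0.05. Of 8 further inositol lipid phosphatases, 7 had a negative log2 fold change (median -0.18), and 0 had an unadjusted p under 0.05. The median of the PP2A genes was -0.19 against control replicate 1 alone and -0.37 against control replicate 2 alone, and that of the lipid phosphatases -0.14 and -0.31. Of 13 genes of the Rag and Ragulator machinery, which senses amino acids at the lysosome, 7 had a positive and 6 a negative log2 fold change (median 0.10), with 4 higher and 0 lower without overlap (30.8%, beside 48.3% of all genes). Their median was 0.23 against control replicate 1 alone and 0.12 against control replicate 2 alone. The 10 targets of mTORC1 and S6 kinase had a median log2 fold change of -0.23 (-0.14 against control replicate 1 alone and -0.31 against control replicate 2 alone). At an unadjusted p under 0.05, 3 were lower and 0 higher in edgeR, where 6.42% of all genes were lower and 6.61% higher.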

How the data were processed

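Reads were trimmed, aligned and counted with Trimmomatic, HISAT2 and Subread on GRCh38, per the submitters' processing notes; versions, annotation and strand setting: not given in the sources used here. The authors deposited whole read counts per gene, with no normalization, and a signal per library named TPM, which sums to 10 times a TPM total and equals count over gene length; TPM here is that signal divided by 10. The authors also deposited a DESeq2 table with log2 fold changes, p-values, a score (the Wald statistic) and a mean signal, per the file headers. Its mean normalized count of ZNF217, 2353, exceeds the highest scaled count in these libraries, 1725, so it does not match the deposited counts of these 4 libraries, for a reason not tested, and was used for no test.

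Counts were tested with edgeR 4.0.16 (quasi-likelihood, TMM, two-sided, R 4.3.3) over 12965 genes passing its low-count filter (minimum count 10, minimum total 15), knockdown over control, with Benjamini-Hochberg adjustment over all of them. CPM uses TMM-scaled totals. DESeq2 1.42.0, limma-voom 3.58.1, other scalings and filters, a replicate block and each library left out were alternatives; DESeq2 with libraries left out was added after the data had been seen. The tests were also run on simulated counts with the same spread in each group. That check does not cover the unequal spread of these groups. Gene positions and exon overlaps came from GENCODE release 29. Genes named are all 34 members, ZNF217, and of the 86 other genes the 10 with the smallest edgeR p and any called by DESeq2; 1 of these 10 is not reported here, and marker genes were named in addition. The members and lists were chosen with earlier results of these data known. Totals of 21466327 to 24487126 counts put the floor of 3 counts at 0.123 to 0.140 CPM of the total, for counting error only. Figures were drawn with matplotlib 3.10.9.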

Additional observations from a re-analysis of the deposited data

How the results depend on the processing

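Of the 32 tested members, 22 kept the direction of their log2 fold change under all 11 alternatives and 10 did not. With a library left out, the log2 fold change ranged from -0.00799 to 0.556 for AKT2, -1.05 to 0.486 for DEPTOR, -0.258 to 0.458 for MTOR, -0.111 to 0.791 for PDPK1, -0.0422 to 0.265 for PIK3R4, -0.188 to 0.159 for TSC1, -0.504 to 0.133 for PPP2CA and -0.0563 to 0.109 for RPTOR. Scaling by total counts moved the median of all genes by 0.11 on the log2 scale; under it AKT1 was 0.0320, GSK3A 0.0367 and TSC1 0.104, the members' median was -0.0416, and 8 members were higher and 7 lower without overlap. Relative to the median of all genes, the members' median was -0.14 with TMM and -0.15 with total counts.

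Adjusted calls of members by edgeR ranged from 0 to 10 higher and 0 to 11 lower with a library left out; DESeq2 called 1 higher. Unadjusted calls ranged from 0 to 10 higher and 0 to 12 lower; lower ones numbered 4 with DESeq2, 1 with limma-voom, 4 with no low-count filter and 1 with total counts. DESeq2 with a library left out called 0 to 8 members higher and 0 to 6 lower. Members without overlap ranged from 6 to 13 higher and 13 to 16 lower. Member shares without overlap within a step ranged from 15 to 26, against 12 with all libraries. Groups of fewer libraries overlap less often, and no share over all genes is given beside either range. For the other pathway genes, leaving out a library gave 0 to 20 higher and 0 to 31 lower adjusted, 1 to 20 higher and 2 to 31 lower unadjusted, and 0 to 13 higher and 0 to 27 lower by DESeq2; DESeq2 on all libraries called 1 higher and 1 lower. All calls that a left-out control added rest on the spread of the knockdown libraries. The DESeq2 counts with a library left out have no share over all genes beside them. They are therefore not read as results about the members or the other pathway genes. ZNF217 was -1.03 in DESeq2, past its threshold, and ranged from -0.89 to -1.13 with a library left out.

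The replicate numbers in the labels pair 2 libraries each, with a correlation of -0.03 between same-numbered deviations across genes. With 2 libraries a group and a far larger spread between controls, this cannot show whether same-numbered libraries share more than a number. With the replicate number as a block, edgeR called 0 members higher and 0 lower adjusted, 1 other pathway gene higher adjusted and 3 lower unadjusted. The cause of these shifts was not tested. DEPTOR and INPP5D had few counts, so differences in them were not detectable at this depth. PIK3R2 also had few counts, but its level cannot be read, because most of its exonic bases lie under exons of AC007192.1.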

Other observations

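The authors' deposited table gives 32 members an adjusted p, of which 1 is under 0.05, EIF4EBP1 at 0.0381, with a log2 value of 1.20 that runs control over knockdown. There, 240 of 12933 genes with an adjusted p are under 0.05. Of 32 tested members, 14 have a direction in the authors' deposited table opposite to that of the edgeR fit on these counts. Among these 14, DEPTOR has the smallest unadjusted p in the authors' deposited table, 0.0243, with a log2 value of -1.70. PIK3R3 has a log2 value of -0.72 there, the same direction as in edgeR, with an authors' DESeq2 adjusted p of 0.77. Of the 9 members called in the same direction against each control alone, SGK1 (-0.41) and PHLPP1 (-0.04) run the opposite way there. The rest of the 9 run the same way. Which libraries entered the authors' deposited table is not stated.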
